A study of Mus musculus with 6 samples.

Results

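Genes of MHC class I antigen presentation were followed in mouse tumours that grew from cutaneous squamous cell carcinoma (cSCC), a cancer of skin keratinocytes. The 10 genes are the class I heavy chains H2-K1 and H2-D1, their light chain B2m, the peptide transporter and loading genes Tap1, Tap2 and Tapbp, the immunoproteasome subunits Psmb8, Psmb9 and Psmb10, and the transactivator Nlrc5. Matching by Ensembl identifier found 9 of these 10 among 37991 genes in the count files, and all 9 passed the expression filter that left 11887 genes for testing. Psmb9 was not analysed here. RNA sequencing covered 3 tumour libraries labelled Kindlin-1 WT and 3 labelled Kindlin-1 Null. Both groups share the tumour origin, and in the null group the gene for Kindlin-1 (Fermt1), an integrin-binding adaptor, was knocked out. Host strain, age, the way the knockout was made and the number of clones are not stated in the labels. Mouse number 238 stands in the titles of wild-type libraries 1 and 2, and number 242 in those of null libraries 2 and 3, so each group may hold 2 animals rather than 3. The deposited file of null library 3 carries a different mouse number from its title, so the null pair, and fits that use it, are uncertain. The p-values measure the spread between libraries, except in fits that sum libraries by mouse number or take it as a random effect. Fits without wild-type library 3 keep only number 238 in the wild-type group. Without null library 1 the null group has only number 242 by title. In such fits the p-value may hold no spread between animals in that group.

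Class I molecules display short peptides of cytosolic proteins at the cell surface, where CD8 T cells read them and natural killer (NK) cells sense their loss. Peptides are cut by the proteasome, in which interferon gamma swaps the constitutive catalytic subunits for the immunoproteasome subunits, and are then pumped into the endoplasmic reticulum by the TAP transporter. There tapasin (Tapbp) bridges the transporter and the empty heavy chain, which is held by B2m. NLRC5 is a member of the NLR family that switches on class I genes through a conserved promoter module, and tumours often lower this pathway.

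The promoter of H2-K1 is shown because it carries, within 250 bases, the kinds of element through which interferon, NF-kappaB and NLRC5 act on class I genes, and that of B2m because it shares only part of them. Both come from RefSeq, build GRCm38.p6, and 8 of the 10 genes had a promoter entry. The submitters' processing notes name build mm9, so these coordinates are not those of the counts. The H2-K1 window lies at chr17:34000348-34000597 on the minus strand, directly before the start site. The B2m window lies at chr2:122147437-122147685 on the plus strand and ends 1 base short of the start site. Capitals mark, on either strand, the IRF core AANNGAAA, the kappaB core GGGNNTTCC, the X2 core TGACG and the CCAAT box.
H2-K1: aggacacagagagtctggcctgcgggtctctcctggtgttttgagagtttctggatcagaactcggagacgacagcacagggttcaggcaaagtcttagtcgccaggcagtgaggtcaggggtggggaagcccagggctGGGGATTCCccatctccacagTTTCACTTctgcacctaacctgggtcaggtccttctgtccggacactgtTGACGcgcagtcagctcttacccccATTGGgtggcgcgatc
B2m: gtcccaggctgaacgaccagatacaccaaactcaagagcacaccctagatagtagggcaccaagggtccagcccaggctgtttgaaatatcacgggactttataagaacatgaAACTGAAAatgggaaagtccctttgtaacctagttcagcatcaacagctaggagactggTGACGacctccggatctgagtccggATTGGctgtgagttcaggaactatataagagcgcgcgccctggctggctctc

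H2-K1 held 1 match of each motif and B2m 1 match of each except the kappaB core. Over 32851 promoter windows of the same length, 21.3% held the IRF core, 4.98% the kappaB core, 17.8% the X2 core and 33.8% the CCAAT box. A match is a description of letters and not a shown binding site. H2-D1 carried the same 4 motifs. The 30 bases that begin with its kappaB core and end 1 base past its IRF core (chr17:35262923-35262952, plus strand) are set against those of H2-K1 (chr17:34000429-34000458, minus strand), because the reads of these heavy chains are compared below, with capitals for both cores.
H2-K1 element: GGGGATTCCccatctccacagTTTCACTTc
H2-D1 element: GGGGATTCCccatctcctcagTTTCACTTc

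The elements differ at 1 of 30 positions. In the annotation used here the whole H2-D1 window lies in an exon of H2-D1. The whole windows of Tap1, Tapbp, Psmb8 and Psmb9 and part of that of Psmb10 also lie in annotated exons. Of the other genes with an entry, Tap1 and Psmb9 held the X2 core and the CCAAT box. Their windows overlap on opposite strands, and both motif matches are the same bases seen from either gene. Tapbp held the CCAAT box alone, and Psmb8 and Psmb10 held none of the 4 motifs. Heavy chain genes are also alike in their transcripts, which bears on counting. Of the 50-base stretches of H2-K1 transcripts 6.87% recur in transcripts of other genes, and of those of H2-D1 13.9%, most often in H2-D1 for the former and in H2-Q1 for the latter. The share was 22.4% for Tapbp and 12.1% for Tap2, most often in genes whose exons overlap theirs on the opposite strand. It was 6.27% for Tap1, 5.51% for Psmb8 and 0% for B2m, Psmb10 and Nlrc5. Reads with several alignments or listed as ambiguous lay outside the gene counts, so levels of genes with shared stretches are uncertain. Class I genes also differ between mouse strains, which adds to this for the heavy chains.

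Depth was lowest in wild-type library 2, with 161711 reads in genes, and highest in null library 2, with 31487255. Fermt1 was counted 16, 2 and 1040 times with the wild-type label and 0, 2 and 2 times with the null label. Scaled for depth, this was 12.5, 12.3 and 64.9 CPM in wild type, highest in library 3, and 0, 0.063 and 0.39 CPM in null tumours. The list of keratinocyte and epithelial markers was low in every tumour, with a summed level of 66.7 to 129 CPM (wild type) and 44.6 to 93 CPM (null), and Dsg3, a desmosomal cadherin, had 0 reads throughout. Of 6 tested 1 passed, the basal keratin Krt14. It stood at 45.3, 36.9 and 26.3 CPM in wild type and at 10.1, 10.5 and 5.12 CPM in null tumours, with every null value below every wild-type value. Its log2 fold change was -2.04 (edgeR adjusted p = 0.01), and -2.35 without wild-type library 3 (adjusted p = 0.00748). Of the 6 genes 4 had a positive log2 fold change. The list median was 0.22, and it was -1.02 over the 4 tested without wild-type library 3. CPM are read counts scaled to a common library size with TMM factors, which correct for differences in RNA composition. Reads in no gene made up 7.15%, 8.75% and 12% of each wild-type library and 5.84%, 5.55% and 4.63% of each null library.

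Of the class I presentation genes only Nlrc5 was called, as lower in tumours without Kindlin-1, and this call was lost in 5 of 14 alternative settings. The other 8 measured genes did not pass the test. Their 95% intervals reached as far as a log2 fold change of -1.22 (Tap2) and 1.12 (Psmb8), so these libraries do not show that their levels were alike. By the quasi-likelihood test of edgeR, adjusted over all tested genes by Benjamini and Hochberg, 1 of 9 members was lower and 0 were higher at an adjusted p under 0.05, against 5.79% of all tested genes that passed, 3.52% lower and 2.26% higher. With DESeq2 0 of 9 passed, and 1 of 9 had an unadjusted p under 0.05 in edgeR, against 25.05% of all tested genes. The median log2 fold change, null minus wild type, was -0.15 over the 9 members and 0.01 over all tested genes. The values of the groups did not overlap for 2 members, Nlrc5 and H2-K1, both lower in null tumours, while 30.5% of all tested genes showed no overlap. These are bulk tumours, in which fewer cells of a type and less RNA per cell cannot be told apart.

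**Figure D1:**
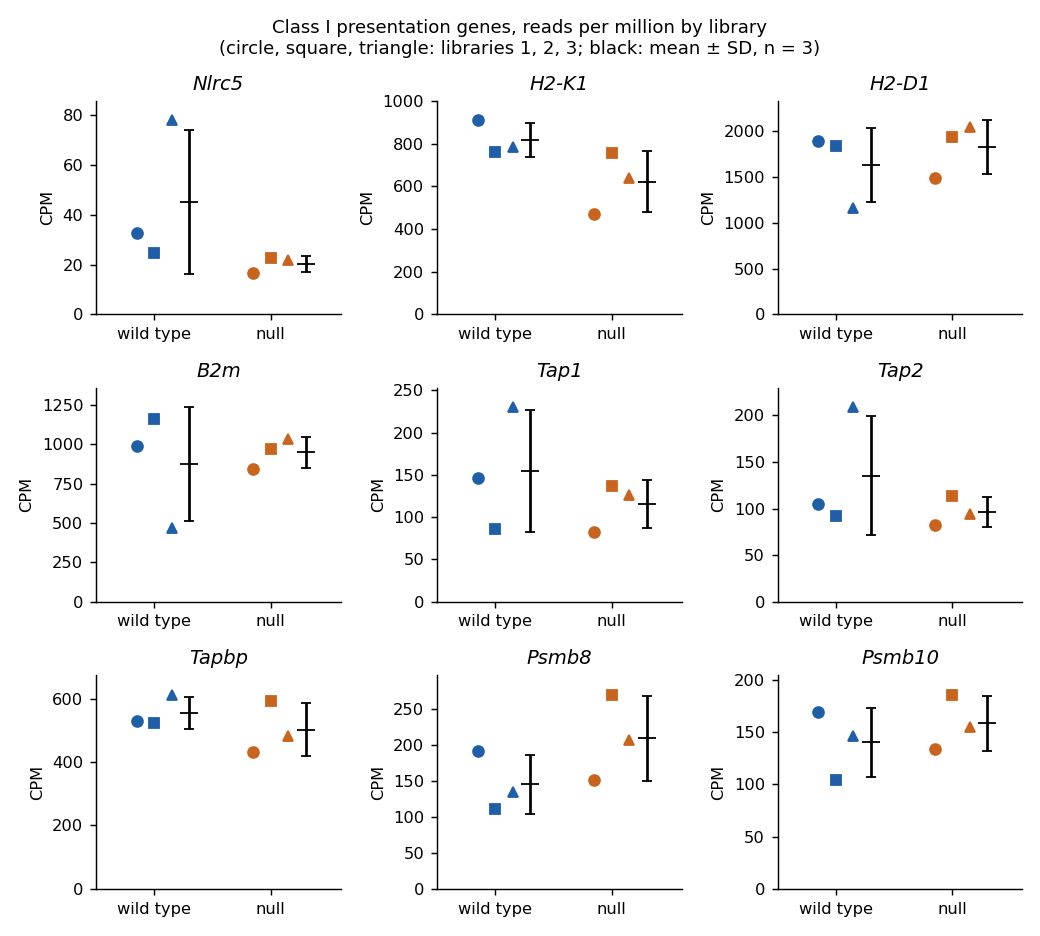
CPM of the 9 measured class I presentation genes in each library, with wild type in blue, null in orange and mean ± SD (n = 3) in black. Nlrc5, Tap1 and Tap2 were highest in wild-type library 3 (triangle), the library in which B2m and H2-D1 were lowest.

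Nlrc5, the transactivator, stood at 32.8, 24.6 and 78 CPM in wild-type libraries 1 to 3 and at 16.6, 22.5 and 21.8 CPM in null libraries 1 to 3. Every null value lay below every wild-type value. The margin was small against wild-type library 2 and wider against library 1, and wild-type library 3 stood far above the rest. The means were 45.1 ± 28.7 CPM with Kindlin-1 and 20.3 ± 3.26 CPM without it (SD, n = 3). The edgeR model, which does not take the quotient of these means, put the fall at 2.52-fold (log2 fold change -1.33, SE 0.35, edgeR adjusted p = 0.0445). Wild-type library 2 held 4 reads of Nlrc5, and the 95% exact Poisson interval of its value, 6.7 to 62.9 CPM, covers all 3 null values. The intervals of wild-type library 1 (23.6 to 44.3 CPM) and null library 3 (18 to 26.3 CPM) overlapped too, and such intervals cover counting error only. The call rested on wild-type library 3. Without it the log2 fold change was -0.58 (edgeR adjusted p = 0.371), and 0 of 9 members passed, against 2.64% of all genes tested in that fit. The call was also lost without null library 1 (edgeR adjusted p = 0.165), 2 (0.0761) or 3 (0.125) and with DESeq2 (0.0779). It held when libraries of 1 mouse number were summed (log2 fold change -1.5, edgeR adjusted p = 0.0358).

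Ciita, the class II transactivator and a relative of Nlrc5, gives a ratio that does not depend on depth. The libraries held 2, 2 and 7.06 Nlrc5 reads per Ciita read in wild type and 2.57, 2.12 and 1.68 in null tumours. Ciita itself had only 2 reads in wild-type library 2, 7 in null library 1 and 21 in wild-type library 1, so those ratios are imprecise. Apart from wild-type library 3 the values lay between 1.68 and 2.57 (exact permutation p = 0.7, two-sided, adjusted p = 0.8 over the 6 ratios computed, where 3 against 3 libraries allow no p below 0.1).

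**Figure D2:**
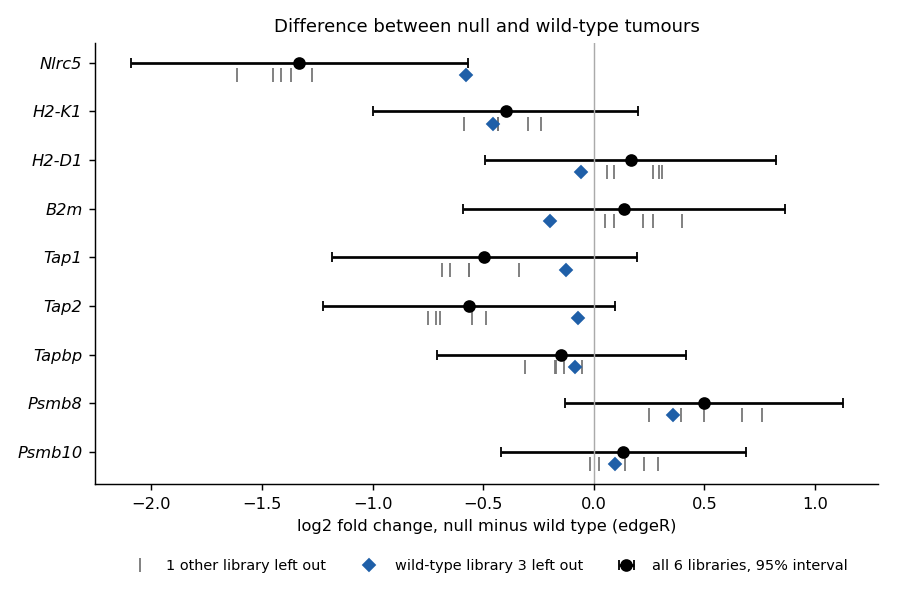
Log2 fold change of each member with its 95% interval (black), and the values with 1 library left out (grey ticks, blue diamond for wild-type library 3). Only the interval of Nlrc5 lies clear of 0, and without wild-type library 3 its value moves from -1.33 to -0.58 and those of Tap1 and Tap2 move to -0.13 and -0.07.

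Among the heavy chains and their light chain, H2-K1 and H2-D1 stood on different sides of 0. H2-K1, a classical heavy chain, stood at 910, 762 and 785 CPM in wild type and at 473, 755 and 638 CPM in null tumours. The groups were separated by only the gap from 755 to 762 CPM, and the fold change did not pass (log2 fold change -0.4, 95% interval -1 to 0.2, edgeR adjusted p = 0.384). H2-D1, the other classical heavy chain, stood at 1890, 1837 and 1162 CPM in wild type and at 1490, 1934 and 2047 CPM in null tumours. The lowest of the 6 values was that of wild-type library 3, and the groups overlapped (log2 fold change 0.17, 95% interval -0.49 to 0.82, edgeR adjusted p = 0.766). B2m, which every class I molecule needs, stood at 988, 1161 and 466 CPM in wild type and at 843, 967 and 1035 CPM in null tumours. Its null values lay within the wild-type range (log2 fold change 0.14, 95% interval -0.59 to 0.87, edgeR adjusted p = 0.831). Wild-type library 3 set the sign for both genes. Without it H2-D1 stood at -0.06 and B2m at -0.2, with edgeR adjusted p values of 0.935 and 0.643.

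Because the promoter elements of H2-K1 and H2-D1 printed above are nearly alike, their reads were compared within each library. There were 0.481, 0.415 and 0.675 H2-K1 reads per H2-D1 read in wild type and 0.317, 0.391 and 0.312 in null tumours. All 3 null ratios lay below all 3 wild-type ratios, with wild-type library 2 and null library 2 closest to each other. On the log2 scale the ratio was -0.96 ± 0.36 in wild type and -1.57 ± 0.18 in null tumours (SD, n = 3), a difference of -0.6 (two-sided exact permutation p = 0.1, which is the lowest possible here, adjusted p = 0.3 over 6 ratios).

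The transporter and loading genes were lower in null tumours by point estimate only. Tap1 stood at 147, 86 and 230 CPM in wild type and at 82.9, 138 and 127 CPM in null tumours. Tap2, the partner subunit of the transporter, stood at 105, 92.2 and 209 CPM in wild type and at 82, 113 and 94.2 CPM in null tumours. For both genes wild-type library 3 was the highest of the 6 and the other libraries of the groups overlapped. Tap1 had a log2 fold change of -0.49 (95% interval -1.18 to 0.19, edgeR adjusted p = 0.346) and Tap2 of -0.56 (-1.22 to 0.1, adjusted p = 0.267). Without wild-type library 3 these were -0.13 and -0.07. Tap1 reads per Tap2 read were 1.39, 0.933 and 1.1 in wild type and 1.01, 1.21 and 1.34 in null tumours, so the subunits stayed near each other in every library (exact permutation p = 0.8, adjusted p = 0.8). Tapbp, encoding tapasin, stood at 529, 522 and 612 CPM in wild type and at 430, 593 and 482 CPM in null tumours. The groups overlapped (log2 fold change -0.15, 95% interval -0.71 to 0.42, edgeR adjusted p = 0.757). Exons of Tap1, Tap2, Tapbp, Psmb8 and Nlrc5 overlap those of antisense genes, and whether counting used strand is not given in the sources used here.

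The immunoproteasome subunits did not pass either. Psmb8, which replaces Psmb5 in the immunoproteasome, stood at 191, 111 and 134 CPM in wild type and at 152, 270 and 207 CPM in null tumours. Null libraries 2 and 3 were the highest, and null library 1 lay within the wild-type range (log2 fold change 0.5, 95% interval -0.13 to 1.12, edgeR adjusted p = 0.304). Psmb10, which replaces Psmb7, stood at 169, 104 and 146 CPM in wild type and at 134, 186 and 155 CPM in null tumours, with overlapping groups (log2 fold change 0.13, 95% interval -0.42 to 0.69, edgeR adjusted p = 0.777).

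Of the 3 constitutive counterparts 1 passed. Psmb5 stood at 95.3, 79.9 and 52.9 CPM in wild type and at 179, 161 and 164 CPM in null tumours, with every null value above every wild-type value. It rose 2.27-fold (log2 fold change 1.18, SE 0.28, edgeR adjusted p = 0.0285). Leaving out wild-type library 2 (edgeR adjusted p = 0.0507) or 3 (0.0659), or null library 1 (0.0887), 2 (0.0527) or 3 (0.0857), ended the call. So did summing the libraries of 1 mouse number in both groups (0.078) or in wild type alone (0.0525). The log2 fold change stayed between 0.87 and 1.23 in these settings. Psmb7 stood at 115, 98.3 and 33.2 CPM in wild type and at 165, 177 and 154 CPM in null tumours (log2 fold change 1.12, edgeR adjusted p = 0.101). Psmb6, the counterpart of Psmb9, stood at 168, 147 and 79.4 CPM in wild type and at 209, 199 and 207 CPM in null tumours (log2 fold change 0.68, edgeR adjusted p = 0.172). Of the 50-base stretches of Psmb5 transcripts 54.1% recur in other genes, mostly the gene model Gm3375, and of those of Psmb7 28.1% recur in Nek6, so the levels of both and the ratios to them are uncertain.

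Read per read, immunoproteasome subunits were less abundant relative to their constitutive counterparts in null tumours by mean, without a test result to separate the groups. Psmb8 reads per Psmb5 read were 2.01, 1.38 and 2.54 in wild type and 0.851, 1.68 and 1.26 in null tumours, and the groups overlapped (exact permutation p = 0.2, adjusted p = 0.4). Psmb10 reads per Psmb7 read were 1.48, 1.06 and 4.4 in wild type and 0.81, 1.05 and 1.01 in null tumours. The null ratios lay below all wild-type ratios (exact permutation p = 0.1, adjusted p = 0.3), but wild-type library 2 and null library 2 were almost equal.

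**Figure D3:**
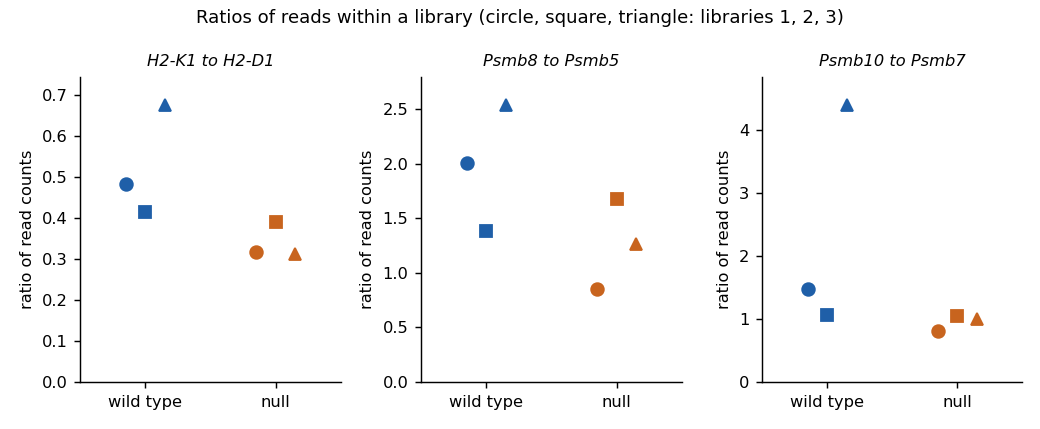
Ratios of read counts within each library for H2-K1 to H2-D1, Psmb8 to Psmb5 and Psmb10 to Psmb7, with wild type in blue and null in orange. Wild-type library 3 (triangle) has the highest ratio in all 3 panels, up to 4.4 for Psmb10 to Psmb7, and the other values of the groups lie close together or overlap.

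The rest of the proteasome core stood higher in null tumours by point estimate. Over the 3 constitutive catalytic and 11 shared 20S subunits, which make the barrel that both proteasome forms use, 1 of 14 passed (Psmb5, higher), 11 had an unadjusted p under 0.05 (25.05% of all tested genes) and 13 had a positive log2 fold change (50.7% of all). The median was 0.82, against 0.01 over all tested genes. The groups did not overlap for 12 of the 14 in the higher direction, where 30.5% of all tested genes did not overlap in either direction, among them Psma1 (log2 fold change 1.07, edgeR adjusted p = 0.0795), Psma5 (1.01, adjusted p = 0.0641) and Psmb1 (0.91, adjusted p = 0.0682). Psma4 stood apart with a log2 fold change of -0.25. Without wild-type library 3 the median was 0.57 and 0 of 14 passed, whereas 3 passed with DESeq2 and 8 with limma-voom and mouse number as a random effect. The proteasome activators Psme1 and Psme2, which interferon gamma induces, had log2 fold changes of 0.57 and 0.69 (edgeR adjusted p = 0.238 and 0.159). In edgeR 0 of 5 activator and assembly genes passed (1 with an unadjusted p under 0.05, 0 with DESeq2). Psme2 passed in limma-voom with the random effect (0.93, adjusted p = 0.0481).

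Among 12 tested other class I heavy chains, 1 passed. H2-Q6, a non-classical heavy chain, stood at 86.7, 67.6 and 67.2 CPM in wild type and at 29.5, 40.7 and 41.9 CPM in null tumours, with a clear gap between the groups. It fell 0.97 on the log2 scale (SE 0.25, edgeR adjusted p = 0.0424), and without wild-type library 3 the value was -1.1 (adjusted p = 0.0425). It did not pass without wild-type library 1 (edgeR adjusted p = 0.0985) or 2 (0.0598), without null library 1 (0.127), 2 (0.0803) or 3 (0.123), with DESeq2 (0.0595), with both pairs summed (0.117), with the wild-type pair summed (0.062), with the random effect (limma-voom, 0.0543) and with no expression filter (edgeR, 0.0531). The log2 fold change lay between -1.07 and -0.81 in these settings. Of its 50-base stretches 35% recur in other genes, most often H2-Q7, whose log2 fold change was -0.44 (edgeR adjusted p = 0.328). The median of the 12 was 0.15, and it was -0.18 over the 10 tested without wild-type library 3. H2-T23, encoding Qa-1, which presents to NK receptors, stood at 0.35 (edgeR adjusted p = 0.493).

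Peptide loading and trimming partners and class I-like molecules did not pass in edgeR with all 6 libraries. Of 8 peptide loading and trimming partners 0 passed in edgeR (2 with an unadjusted p under 0.05, 1 with DESeq2), and all 8 had a positive log2 fold change with a median of 0.3. Calnexin (Canx), a chaperone of new heavy chains, averaged 430 ± 33.7 CPM with Kindlin-1 and 727 ± 94.8 CPM without it (SD, n = 3; log2 fold change 0.76, edgeR adjusted p = 0.0946). It passed with DESeq2 (0.76, adjusted p = 0.0282) and in limma-voom with the random effect (0.84, adjusted p = 0.0432). Erap1, which trims peptides in the endoplasmic reticulum, stood at 0.14 (edgeR adjusted p = 0.749). Of 5 class I-like molecules 0 passed (4 with an unadjusted p under 0.05, where 25.05% of all tested genes had one, 0 with DESeq2). Cd1d1, which presents lipids to NKT cells, stood lowest at 5.47, 6.14 and 5.93 CPM in wild type and at 0.921, 3.3 and 0.984 CPM in null tumours, without overlap of the groups but with 1 read in wild-type library 2 and in null library 1 (log2 fold change -1.41, edgeR adjusted p = 0.153). Higher by point estimate were Mr1 (0.91, edgeR adjusted p = 0.1845), Hfe (0.78, adjusted p = 0.124), Procr (0.58, adjusted p = 0.322) and Fcgrt (0.58, adjusted p = 0.165). Hfe, which acts in iron handling, and Fcgrt, which acts in antibody handling, also pair with B2m. Without wild-type library 1 Hfe passed (1.17, edgeR adjusted p = 0.0444).

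The regulators of class I genes and the interferon gamma pathway went both ways. Of 20 tested genes 0 passed in edgeR (1 with an unadjusted p under 0.05, 0 with DESeq2), with log2 fold changes from -0.79 to 0.48 and a median of -0.05. The lowest was Stat2, a carrier of type I interferon signals (edgeR adjusted p = 0.144), which passed in limma-voom with the random effect (-1.07, adjusted p = 0.0451). Irf1, a factor that binds the IRF core, stood at -0.24 (edgeR adjusted p = 0.555). Ifng itself had too few reads to test. Of 15 interferon gamma-induced genes 0 passed (6 with an unadjusted p under 0.05, against 25.05% of all tested genes, 0 with DESeq2). Their median was -0.11, and 0.18 without wild-type library 3. Cxcl9, a T cell chemokine, stood at 27.3, 36.9 and 7.3 CPM in wild type and at 2.76, 7.73 and 6.49 CPM in null tumours (log2 fold change -1.5, edgeR adjusted p = 0.126). Here wild-type library 3 was the exception that matched the null tumours, and without it Cxcl9 passed (edgeR adjusted p = 0.0212). That fit rests on 35 and 6 Cxcl9 reads in wild-type libraries 1 and 2, which share mouse number 238. Of 9 class II presentation genes 0 passed (0 with an unadjusted p under 0.05, 0 with DESeq2). Of these 8 had a negative log2 fold change, with a median of -0.36, and -0.68 over the 8 tested without wild-type library 3. In that fit Cd74, the invariant chain, passed as lower (edgeR adjusted p = 0.044).

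**Figure D4:**
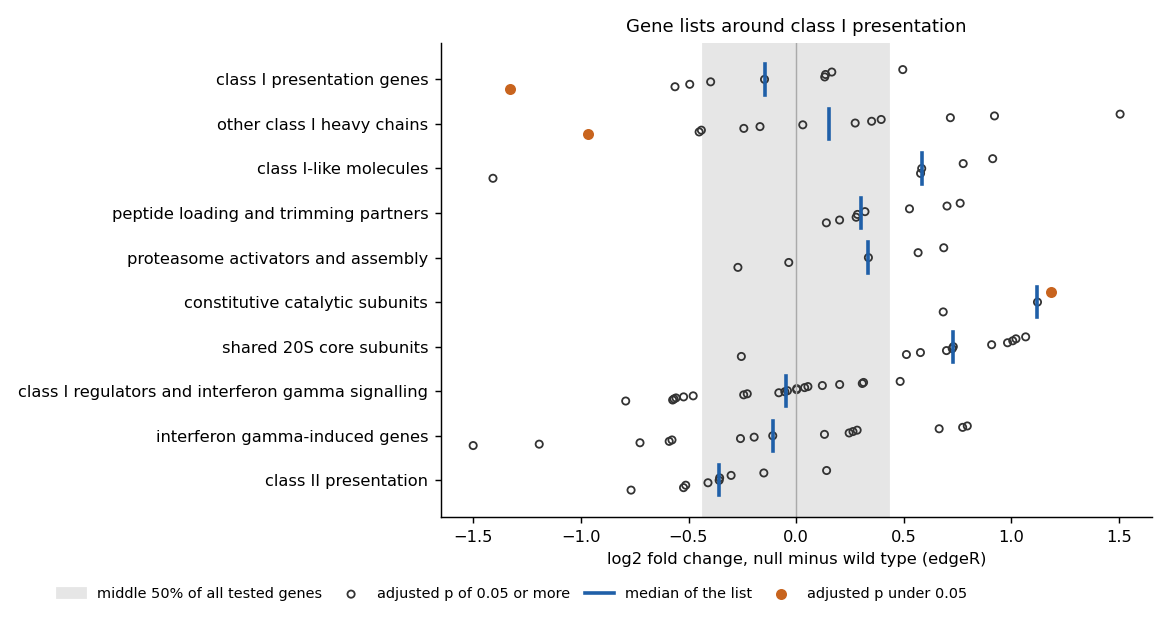
Log2 fold changes of the tested genes in each list, with genes that passed in orange, list medians as blue bars and the middle 50% of all tested genes in grey (-0.43 to 0.43). The medians of the 20S lists (1.12 and 0.73) and of the class I-like molecules (0.58) lie outside the grey band, and the members' median (-0.15) lies inside it.

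Transcript length ran along with these differences. Nlrc5 has the longest transcript of the 9 members (7578 bases) and B2m the shortest (860 bases). Over tested genes with a known coding transcript, the median log2 fold change was 0.44 for lengths under 1000 bases, 0.22 from 1000 to 2000, -0.01 from 2000 to 4000 and -0.18 over 4000 (Spearman's rho = -0.27 across 11424 genes, which are not independent). The slope was shallower without wild-type library 3, with medians from 0.24 to -0.1. Wild-type library 3 itself stood 0.66 below the mean of wild-type library 1 and the null libraries in the shortest class, by the median gene on the log2 scale, and 0.26 above it in the longest. The value of Nlrc5 (-1.33) lay far from the median of its class, and that of B2m (0.14) below the median of its class. Of genes over 4000 bases 5.29% were called lower. The share of mitochondrial rRNA was 0.385%, 0.511% and 0.815% with Kindlin-1 and 0.121%, 0.129% and 0.0937% without it. The part that length or RNA quality had in the results for Nlrc5, B2m and the 20S subunits was not tested.

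**Figure D5:**
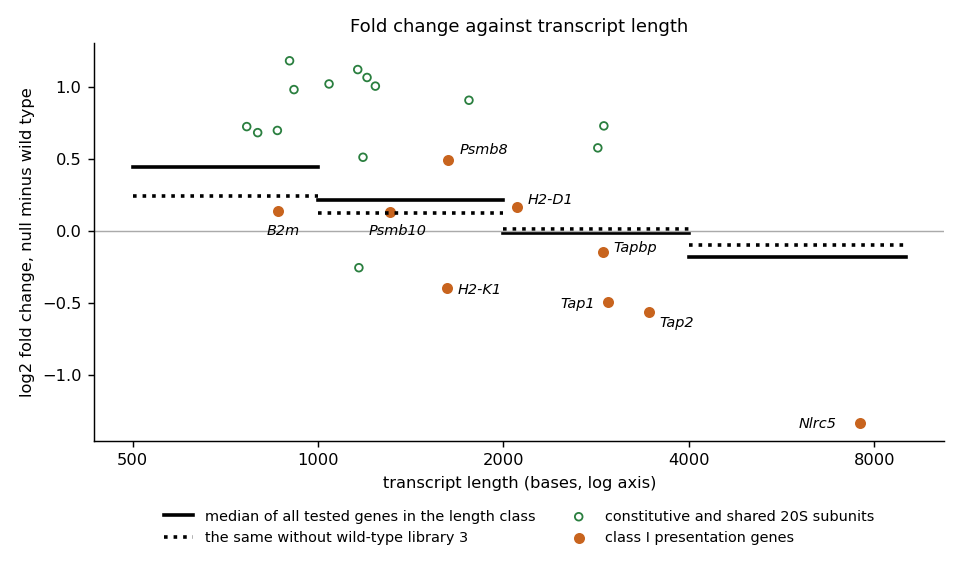
Log2 fold change against transcript length (log axis) for the members (orange) and the constitutive and shared 20S subunits (green rings), with medians of all tested genes per length class with all libraries (solid) and without wild-type library 3 (dotted). Class medians fall from 0.44 to -0.18 with length, and Nlrc5 lies below them at -1.33.

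Compared per kilobase of transcript, the presenting molecules were the most abundant members and their regulator the least. In wild type B2m stood at 1014 ± 421 CPM per kilobase, H2-D1 at 775 ± 193, H2-K1 at 506 ± 49.1, Tapbp at 191 ± 17.4, Psmb10 at 107 ± 25.1, Psmb8 at 89.3 ± 25.5, Tap1 at 52.2 ± 24.5, Tap2 at 39.3 ± 18.5 and Nlrc5 at 5.95 ± 3.79 (SD, n = 3). The null order was the same except that Psmb8 (129 ± 36.3) stood above Psmb10 (121 ± 20). Over the 6 libraries the ranges of neighbours in the wild-type order overlapped, except that H2-K1 lay above Tapbp, Tapbp above Psmb10 and Tap2 above Nlrc5 in every library.

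The members did not move as a block. Of 36 pairs 24 had a positive and 12 a negative correlation of log2 CPM over the 6 libraries, with a median of 0.22. Nlrc5 went with Tap2 (r = 0.95) and Tap1 (0.87) and ran against B2m (-0.8), Psmb8 went with Psmb10 (0.91), and B2m went with H2-D1 (0.92) and ran against Tap2 (-0.87). These are descriptions of 6 points, with wild-type library 3 at one end for Nlrc5, Tap2 and B2m. Among the genes whose log2 CPM was most like the members' mean pattern over the 6 libraries were Sema4d (r = 0.99), Top1mt (0.99), Evc (0.97), Rbfox2 (0.97), Tubb2a (0.97), Grwd1 (0.97), Gcat (0.96), Uba7 (0.96) and Coa5 (0.96), out of 9963 candidates.

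Markers of the cells that carry or read class I were also counted. Leukocyte markers, which include the pan-leukocyte phosphatase Ptprc, summed to 1388 to 1497 CPM (wild type) and 1020 to 1292 CPM (null), and 0 of 7 passed (1 with an unadjusted p under 0.05, 0 with DESeq2). Though the null sums were lower, 5 of the 7 had a positive log2 fold change. Their median was 0.08 (-0.11 without wild-type library 3), and the lowest was Laptm5 (-0.77). Macrophage markers summed to 3827 to 6865 CPM and 6322 to 7739 CPM, and 0 of 12 passed (1 with an unadjusted p under 0.05, 0 with DESeq2). Of the 12 markers 7 had a negative log2 fold change, with a median of -0.01 (-0.29 without wild-type library 3), and the highest was Lyz2 (1.17). The CD8 chain Cd8a had 7, 0 and 16 reads in wild type and 0, 24 and 2 reads in null tumours, too few to test, and Cd3e had 0 reads in 4 of the libraries. Of 5 tested T and NK recognition genes 0 passed (1 with an unadjusted p under 0.05, 0 with DESeq2), and of 3 tested NKG2D ligands, stress signals to NK cells, 0 passed (0 with an unadjusted p under 0.05, 0 with DESeq2). Skeletal muscle markers summed to 530 to 1402 CPM (wild type) and 38.4 to 107 CPM (null), with 9 of 9 lower, adipocyte markers to 97.1 to 251 and 43.5 to 94 CPM, with 3 of 4 tested lower, and mast cell markers to 376 to 1051 and 1415 to 4720 CPM, with 5 of 7 higher, of which 0 passed without wild-type library 3. Of dendritic cell markers 1 was higher and 1 lower among 8, of fibroblast markers 2 and 1 among 6, and of endothelial markers none passed among 7 (0 with an unadjusted p under 0.05, 0 with DESeq2). The part that tissue makeup had in the class I values was not tested.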

How the data were processed

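Each deposited file gives 1 library's raw read counts by Ensembl gene, not normalized by the authors. Per the submitters' processing notes, TopHat2, Cuffdiff, DESeq2 and build mm9 were used. For counting, no program, strand setting or annotation is given in the sources used here. Reads listed as ambiguous, aligned more than once or outside genes were left out of totals and tests. Symbols came from GENCODE M21 and matched 86.6% of 37991 identifiers. Transcript lengths are those of its principal coding transcript.

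Null was compared with wild type in R 4.3.3 by edgeR 4.0.16 (quasi-likelihood test, robust fit, TMM scaling, default expression filter, Benjamini-Hochberg adjustment at 0.05), fitted on all genes. Log2 CPM used a prior count of 3. On simulated counts with these library sizes (200 changed genes) the fit recovered 94% of 4-fold and 94% of 8-fold changes. The simulation gave all genes the same dispersion, had no outlying library and held no change smaller than 4-fold. It therefore does not show how often changes of the size seen in the members would be found. Alternatives used DESeq2 1.42.0, limma 3.58.1, other scalings and filters, summed libraries and 1 library left out. Ratios were tested by exact permutation (scipy 1.17.1) on log2 of reads plus 0.5. Members, lists and tests were chosen with earlier results of these data known. All 10 members are named, and of the other pathway lists the genes that passed, up to 4 a list. Further genes were chosen after their values were seen, and cell type marker lists are given mainly as counts and sums. Motifs were searched in the 250 bases before each start, and transcript stretches of 50 bases were used because the read length is not given in the sources used here. Values of 2 genes are not reported here.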

Additional observations from a re-analysis of the deposited data

How the results depend on the processing

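The log2 fold change of Nlrc5 lay between -1.61 and -0.58 under the 14 alternatives, and its call held in 9 of them, with adjusted p between 0.0201 and 0.371. All 9 included wild-type library 3, and several only rescaled or refiltered the same 6 libraries. The count of members that passed was 1, and it was 0 with DESeq2 and between 0 and 1 with 1 library left out. The other 8 members passed under none of the 14 alternatives. Signs turned for Psmb10 (-0.0279) with mouse number as a random effect, and with 1 library left out the log2 fold change ranged from -0.0196 to 0.29 for Psmb10, from -0.0562 to 0.308 for H2-D1 and from -0.198 to 0.397 for B2m. Of 64 tested genes of the wider lists 2 passed (H2-Q6 and Psmb5), 4 with DESeq2, 1 with no expression filter, 0 with both pairs or the wild-type pair of a shared mouse number summed, 11 in limma-voom with that random effect and 0 to 5 with 1 library left out. Over all genes 688 passed, 1156 with the random effect and 179 to 855 with 1 library left out, the lowest without null library 1, 225 without null library 3 and 281 without wild-type library 3. The cause of these moves was not tested. Replicate numbers follow the deposited order and pair no samples. Depth limits wild-type library 2 most, where 3 reads stand at 18.6 CPM before TMM scaling, near the level of Nlrc5 in the null tumours.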
